A study of Mus musculus with 24 samples.

Results

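The probes described here measured the mRNAs of the cytosolic ribosomal proteins. A probe was a member if the array design named its gene Rpl or Rps with a number, Rplp0, Rplp1, Rplp2 or Rpsa. Names of the Rps6k kinases and of pseudogenes were left out. This gave 81 of the 27827 gene names of the array, read by 138 of its 41174 probes. The rule uses names only. Of these, 137 probes of 81 genes were well above background on at least 4 of the 24 arrays and were tested, and the remaining probe, one of Rps2, was well above background on 1 array. The tested members comprised 80 probes of 49 large-subunit genes and 57 probes of 32 small-subunit genes.

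The study measured hippocampal RNA of C57Bl/6 mice by one-colour hybridisation to Agilent arrays, with 1 mouse per array and 4 arrays in each of 6 groups. The control groups were mice of 3 months (young control) and of 16 months (old control) that were handled and otherwise naive. The fear-conditioned groups (young fear and old fear) were mice of 3 and 16 months that spent 3 min in a new context, received a single foot shock of 0.7 mA for 2 s and had their hippocampi taken 1 h later. Mice of 3 months that explored the context without a shock formed the context group, and mice of 3 months that were shocked on arrival and explored afterwards formed the shock-context group, both also sampled 1 h later. These last groups are the non-associative comparisons for fear conditioning. Each hippocampus was measured whole, so fewer cells of one type and less RNA per cell cannot be told apart.

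The ribosome joins a small subunit, which reads the mRNA, to a large subunit, which forms the peptide bond. Each subunit is built on ribosomal RNA with many small, mostly basic proteins, most of them present as a single copy, and their synthesis is usually balanced. The mRNAs of these proteins are among the most abundant in brain, start with a run of pyrimidines (the TOP motif) and are controlled mainly in translation, through mTOR and LARP1. Translation of stored and new mRNAs in hippocampal neurons is needed to form long-lasting contextual memories.

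The 16 arrays of controls and fear-conditioned mice formed a first scan run, on 4 slides that each held 1 array of each of those 4 groups. The 8 context and shock-context arrays came from a second run, on 2 other slides. The 75th percentile of the signal was 757 to 2137 intensity units in the first run and 3101 to 8369 in the second, and 86.2% to 93.9% and 75.1% to 81.4% of probes were well above background. Context or shock-context against control therefore cannot be told apart from the scan run. The members were well measured in both runs: 134 of the 138 probes were well above background on all 24 arrays, and the mean log2 level of the 137 tested probes ran from 3.82 to 18.36 with a median of 15.28. All 17 probes for excitatory neuron markers were well above background on at least 1 array of each group, as were all 22 choroid plexus and 33 thalamus probes in the control and fear groups, so detection alone does not set hippocampus apart from its neighbours. Within the young fear group, arrays 1 and 2 deviated together and against arrays 3 and 4. Across the members, the deviations from the group mean correlated at 0.43 and 0.34 within those pairs and at -0.76 to -0.59 across them.

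One region of old control array 2 was dim. There, 750 probes lay more than 3 log2 units below the mean of the other old control arrays, and 748 of them sat in a block of rows 200 to 330 and columns 30 to 55 of a grid of 532 rows and 85 columns. On every other array at most 45 probes lay so far below the rest of their group. The block held spots of 11 member probes, 4 of which had dropped that far, and none of the 4 carried an outlier mark. A probe of Rpl24, a large-subunit protein at the contact between the subunits, read 7.34 there against 14.39 to 14.79 on the other old control arrays. A probe of Rps28, a small-subunit protein near the mRNA exit, read 10.32 against 16.14 to 16.46. The probe of Rpl11 read 11.37 against 17.06 to 17.29 and that of Rpl13 read 11.77 against 17.18 to 17.36. The others in the block lay 0.11 above to 1.88 below the other old control arrays. Counts and the values of these 4 probes in comparisons with old controls are given below with the block in place and with it left out, an alternative chosen after seeing the data.

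The sequences of some of the probes that fell or rose most, each with a reading frame without a stop, are printed first. All are 60 bases, given 5′ to 3′, with mm9 coordinates as the array files map them, and those that span more than 100 bases map in pieces. Among the probes with the lowest change after fear conditioning in young mice were those of Rps3 and Rps9, small-subunit proteins at the mRNA entry channel.
Rps3 probe, chr7:106630863-106631137, minus strand: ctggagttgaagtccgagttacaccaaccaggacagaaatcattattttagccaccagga
Rps9 probe, chr7:3656257-3656316, plus strand: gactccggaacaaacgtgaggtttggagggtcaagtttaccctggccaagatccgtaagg
The probes with the highest change were those of Rpl10a, which lies in the mobile L1 stalk of the large subunit, and Rpl4, which lines the peptide exit tunnel.
Rpl10a probe, chr17:28466425-28467486, plus strand: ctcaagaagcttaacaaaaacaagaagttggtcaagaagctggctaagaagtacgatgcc
Rpl4 probe, chr9:64022737-64022796, plus strand: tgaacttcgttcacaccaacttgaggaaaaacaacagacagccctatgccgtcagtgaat

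Fear conditioning in young mice was accompanied by lower signal of most members. Of the 137 probes, 79 fell and 5 rose, 84 in all (limma, Benjamini-Hochberg adjusted p under 0.05 over all 38762 probes tested, 2-sided), whereas 20.6% of all probes fell and 22.5% rose, 43.1% in all. With the dim block left out, 80 fell and 5 rose. In the same comparison 21 of 22 choroid plexus marker probes fell, 22 of 33 thalamus and 19 of 27 oligodendrocyte marker probes rose, and the part of these tissues in the members' values was not tested. The median log2 change of the members was -0.35, with an interquartile range of -0.66 to -0.04, beside -0.08 for all probes. The signals of the young fear arrays lay wholly below those of the young control arrays for 69 members and wholly above for 5, where the shares over all probes were 18.6% and 21.1%. The members also spread less than the array as a whole: the SD of their changes was 0.44, beside 0.67 over all probes. By gene, 40 of the 81 fell on every tested probe, 19 more fell on at least 1 probe and not on all, 2 rose on every probe, and 18 passed the test on none.

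Both subunits took part. In the large subunit 43 of 80 probes fell and 3 rose, with a median of -0.34, and in the small subunit 36 of 57 fell and 2 rose, with a median of -0.39. On the single arrays the median member lay at -0.46, -0.42, -0.33 and -0.29 in young fear arrays 1 to 4, relative to the young control mean. The young control arrays lay at 0.04, 0.04, 0.00 and -0.04, so the groups did not overlap. The large-subunit median was -0.45, -0.43, -0.24 and -0.26 and the small-subunit median -0.46, -0.42, -0.37 and -0.40 on those young fear arrays. The subunits were thus level on arrays 1 and 2 and 0.13 and 0.15 apart on arrays 3 and 4. The mean difference was 0.07 ± 0.08 (SD, n = 4), beside 0.00 ± 0.03 in young controls, and was not tested. Against the young control array of the same slide, the small-subunit median was -0.52, -0.38, -0.34 and -0.49 on slides 1 to 4. The large-subunit median there was -0.43, -0.26, -0.20 and -0.51, so the small subunit was the lower one on slides 1 to 3. Whether the subunits differ is not settled by these values.

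**Figure D1:**
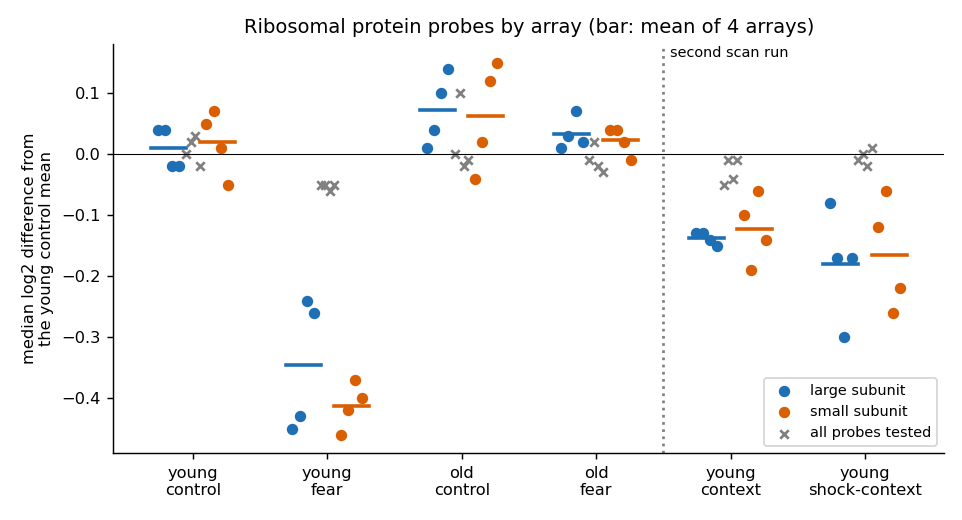
Median log2 difference from the young control mean (vertical axis) of the large-subunit (blue) and small-subunit (orange) member probes and of all probes tested (grey crosses), 1 point per array, by group (horizontal axis), with bars at the mean of 4 arrays. The young fear arrays lie between -0.46 and -0.24 in both subunits, below every other array of the first scan run.

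Each replicate number of the first run is also 1 slide, so slide and number are the same block, and with it in the fit 74 members fell and 5 rose. The fall was present on each slide when only the arrays sharing it were set against each other. The median member change was -0.50, -0.32, -0.21 and -0.49 on slides 1 to 4, and 113, 98, 99 and 117 of the 137 probes were lower. Other scalings kept the direction and changed the size. With each array scaled to its 75th percentile, the median of all probes moved from -0.08 to -0.27, 106 members fell and 2 rose, beside 27.5% and 17.2% of all probes, and the members' median stood 0.47 below that of all probes instead of 0.27 below.

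**Figure D2:**
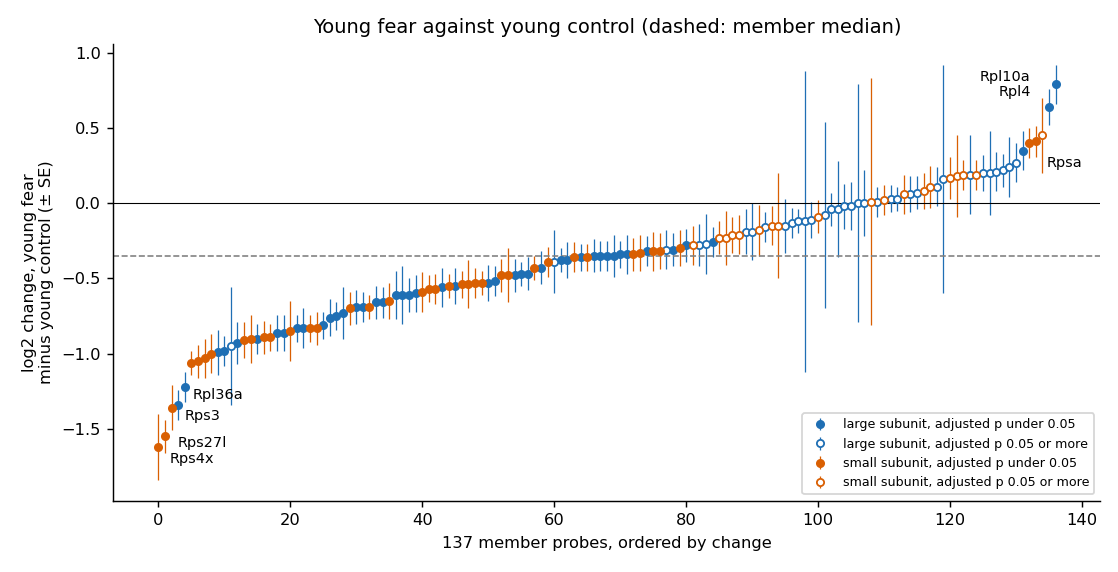
Log2 change in young fear against young control with its SE (vertical axis) for the 137 member probes, ordered by change (horizontal axis), blue for the large and orange for the small subunit, filled where the adjusted p is under 0.05; the dashed line is the members' median of -0.35. Rps4x, Rps27l and Rps3 lie lowest, at -1.62 to -1.36, and Rpl10a and Rpl4 lie highest, at 0.79 and 0.64.

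Outlying members were those more than 1 log2 unit from the members' median. There were 3 on the low side, all in the small subunit, and 1 on the high side. The lowest was an EST-derived probe of Rps4x, the X-linked copy of a core small-subunit protein. It read 10.69, 10.43, 10.29 and 10.84 in young controls and 8.95, 8.78, 9.16 and 8.88 after fear conditioning, a change of -1.62 ± 0.22 (SE, adjusted p = 4.53e-06, limma). The files map no genome position for it, and the other Rps4x probe changed by -0.53 ± 0.10 (adjusted p = 0.000262, limma).

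Rps27l came next. It encodes a paralogue of Rps27 that is a known p53 target, and its probe spans chr9:66795486-66797176 of mm9. The log2 signal was 13.88, 13.83, 13.80 and 13.69 in young controls and 12.13, 12.21, 12.33 and 12.33 after fear conditioning, with no overlap. The change was -1.55 ± 0.11 (SE), a 2.93-fold lower signal (adjusted p = 8.51e-10, limma). Old controls read 13.60, 13.54, 13.92 and 13.92 and old fear-conditioned mice 13.62, 13.68, 13.83 and 13.79, and these ranges overlap. Context arrays read 13.23, 13.17, 13.37 and 13.18 and shock-context arrays 13.33, 13.33, 12.98 and 13.41, all between the young fear and young control arrays. The parent gene Rps27 moved less: 17.14, 17.22, 17.32 and 16.98 in young controls against 16.81, 16.76, 16.69 and 16.70, a change of -0.43 ± 0.08 (adjusted p = 0.000275, limma).

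The Rps3 probe printed above read 14.18, 14.13, 13.72 and 13.86 in young controls. After fear conditioning it read 12.49, 12.44, 12.46 and 13.06, with array 4 the highest. The change was -1.36 ± 0.15 (SE), 2.57-fold lower (adjusted p = 3.57e-07, limma), and the second Rps3 probe gave -0.55.

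Just inside the limit of 1 log2 unit lay Rpl36a, a large-subunit protein near the site where tRNA leaves the ribosome. One of its probes read 15.61, 15.88, 15.88 and 15.76 in young controls and 14.35, 14.35, 14.43 and 14.64 after fear conditioning. Every young fear array was below every young control array. That probe changed by -1.34 ± 0.10 (SE, adjusted p = 1.95e-09, limma), and the others gave -1.22 ± 0.10 and -0.75 ± 0.09. Its close paralogue Rpl36al changed by -0.61 ± 0.19 (adjusted p = 0.0134, limma), with overlapping groups.

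In the small subunit, a single probe each of Rps13, Rps7, Rps20 and Rps9 was also at least 2.00-fold lower. Rps13, which binds the central domain of the small-subunit RNA, read 16.66, 16.78, 16.75 and 16.67 in young controls and 15.66, 15.62, 15.66 and 15.68 after fear conditioning. Its change was -1.06 ± 0.08 (SE, adjusted p = 2.14e-09, limma), and its second probe gave -0.85 ± 0.20. Rps7, needed for small-subunit assembly and able to bind MDM2, read 16.94, 17.30, 17.01 and 17.15 against 15.94, 15.89, 16.06 and 16.32, a change of -1.05 ± 0.11. Rps9 read 14.89, 14.85, 14.94 and 14.69 against 13.56, 13.56, 14.09 and 14.15, so arrays 1 and 2 were lower than arrays 3 and 4. It was 2.00-fold lower, with an SE of 0.13 on the log2 scale (adjusted p = 1.73e-06, limma). Rps20 changed by -1.03 on a clone-derived probe with a young control mean of 9.30, and by -0.83 on its other probe, with a mean of 17.51. In the large subunit Rpl14 changed by -0.99 and Rpl34 by -0.98 and -0.81.

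The members that rose formed a short list: Rpl10a, Rpl4, Rpsa, Rps15a and Rpl13. Rpl10a read 14.22, 14.04, 13.97 and 14.06 in young controls and 14.59, 14.62, 15.15 and 15.12 after fear conditioning. All young fear arrays were higher than all young control arrays, arrays 3 and 4 most. Its change was 0.79 ± 0.13 (SE), 1.73-fold higher (adjusted p = 2.99e-05, limma). Rpl4 read 13.79, 13.31, 13.68 and 13.87 against 14.44, 14.48, 14.22 and 14.06, a change of 0.64 ± 0.12 (1.56-fold, adjusted p = 0.000245, limma).

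Rpsa, the laminin-receptor protein of the small subunit, read 13.62, 13.62, 14.08 and 13.76 against 14.10, 14.19, 14.26 and 14.19. The groups did not overlap, by a small margin, and the change was 0.41 ± 0.10 (adjusted p = 0.00189, limma), while its other probe gave -0.18. Rps15a read 14.56, 14.57, 14.22 and 14.57 against 15.03, 14.92, 14.83 and 14.74, a change of 0.40 ± 0.10 (adjusted p = 0.00254, limma), with 0.19 on its other probe. Rpl13 gave 0.35 ± 0.13 (adjusted p = 0.029) on one probe, -0.34 (adjusted p = 0.0395) on another and 0.16 on the third, the only gene of the 81 that passed the test in both directions (limma).

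**Figure D3:**
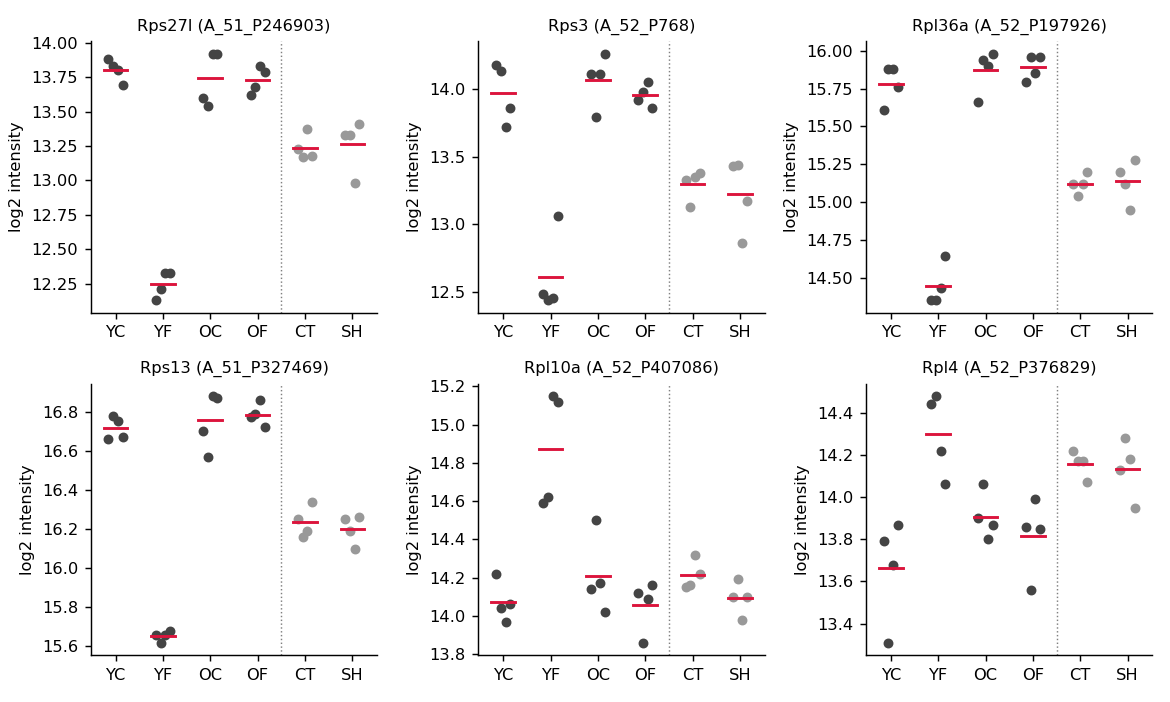
Log2 intensity after quantile normalization (vertical axes) of 6 member probes on each array (points) by group (horizontal axes): young control (YC), young fear (YF), old control (OC), old fear (OF), context (CT) and shock-context (SH), with red bars at group means and a dotted line between the scan runs. For Rps27l, Rps3, Rpl36a and Rps13 the young fear group has the lowest mean, and for Rpl10a and Rpl4 the highest.

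Functional groups within the ribosome gave mixed values. In the stalk that recruits elongation factors, Rplp2 changed by -0.38 (adjusted p = 0.000412, limma), Rplp1 by -0.31 ± 0.13 (adjusted p = 0.0579) and the 3 Rplp0 probes by -0.47 (adjusted p = 9.12e-05), -0.16 and 0.20. The proteins that carry 5S RNA into the large subunit and restrain MDM2 when unassembled are Rpl5 and Rpl11. Rpl5 read 16.91, 16.75, 17.07 and 16.53 in young controls and 15.83, 15.90, 16.08 and 15.99 after fear conditioning, without overlap, a change of -0.86 (adjusted p = 5.47e-06, limma). Rpl11 changed by -0.76 (adjusted p = 2.32e-05, limma) on one probe, a clone-derived one with a young control mean of 10.29. The other, in the dim block and with a young control mean of 16.89, gave 0.00 ± 0.79. With the block left out it gave 0.00 ± 0.13. Rps27a, which is made as a fusion to ubiquitin, changed by -0.54.

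Some core proteins did not pass the test in either direction. Rps6, the substrate of the S6 kinases and a common readout of mTOR activity, read 15.64, 15.67, 15.54 and 15.29 in young controls and 15.58, 15.52, 15.62 and 15.50 after fear conditioning. The ranges overlap, and the change was 0.02 ± 0.10 (adjusted p = 0.896, limma) under quantile normalisation and -0.41 (adjusted p = 0.00819) with 75th percentile scaling. A second, clone-derived probe of Rps6 gave 0.45 (adjusted p = 0.156, limma). It maps 18687 bases from the first and had a young control mean of 6.65. Rpl3, at the peptidyl transferase centre, gave 0.07 (adjusted p = 0.659), and its muscle-type paralogue Rpl3l gave -0.39 (adjusted p = 0.154). Rpl3 too was called lower with 75th percentile scaling, at -0.35 (adjusted p = 0.0236). Rpl10, which completes the large subunit, gave -0.19 and -0.28 on its 2 probes, neither past the threshold. The array files map the first to chromosome X and the second to chromosome 8.

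Of the other paralogue pairs, Rpl39 fell (-0.32, adjusted p = 0.0093, limma). Its paralogue Rpl39l, known best from testis, gave -0.95 (adjusted p = 0.0532) and -0.08 on probes that were well above background on 22 and 10 of the 24 arrays. Rpl22 gave -0.73 (adjusted p = 0.00132) and -0.12, and Rpl22l1 gave -0.32 and -0.11.

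Probes of one gene often gave unlike values. Of 42 genes with 2 or more tested probes, 13 had probes of opposite sign, a count that includes values near 0. Only Rpl13 passed the test in both directions. In Rps4x the probes differed by more than 1 log2 unit. Rpl7a, a large-subunit protein, shows the pattern within one transcript. Of the probes printed next, the first maps near the start of the gene and gave 0.03 (adjusted p = 0.828), and the second gave -0.66 (adjusted p = 2.56e-05, limma).
Rpl7a first probe, chr2:26766993-26767052, plus strand: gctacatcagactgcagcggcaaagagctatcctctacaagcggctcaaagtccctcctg
Rpl7a second probe, chr2:26768694-26768753, plus strand: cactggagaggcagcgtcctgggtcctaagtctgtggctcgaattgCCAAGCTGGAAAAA
The capitals mark the 14 bases that the second probe shares with the third, at chr2:26768740-26768798, which gave -0.43 (adjusted p = 0.00236, limma). With 75th percentile scaling the first probe was called lower as well, at -0.32 (adjusted p = 0.00279).

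Probes that read the same bases gave closer values. In 8 pairs of probes of one gene that shared at least 14 bases, the changes differed by 0.00 to 0.23 with a median of 0.115. In the 64 pairs of one gene that shared no such run, they differed by 0.00 to 1.09 with a median of 0.35. The other genes whose probes disagreed in sign, beside Rplp0, Rpsa and Rpl13 above, were Rps3a, Rps25, Rpl7, Rpl21, Rpl35a and, with values, Rps28 (-0.91, -0.34, -0.21 and 0.01), Rps12 (-0.53 and 0.17), Rpl27a (-0.34 and 0.24) and Rps24 (-0.48, 0.06 and 0.08). Ribosomal protein genes have many near-identical processed pseudogenes, and reads of those copies by a probe cannot be told apart from reads of the gene.

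**Figure D4:**
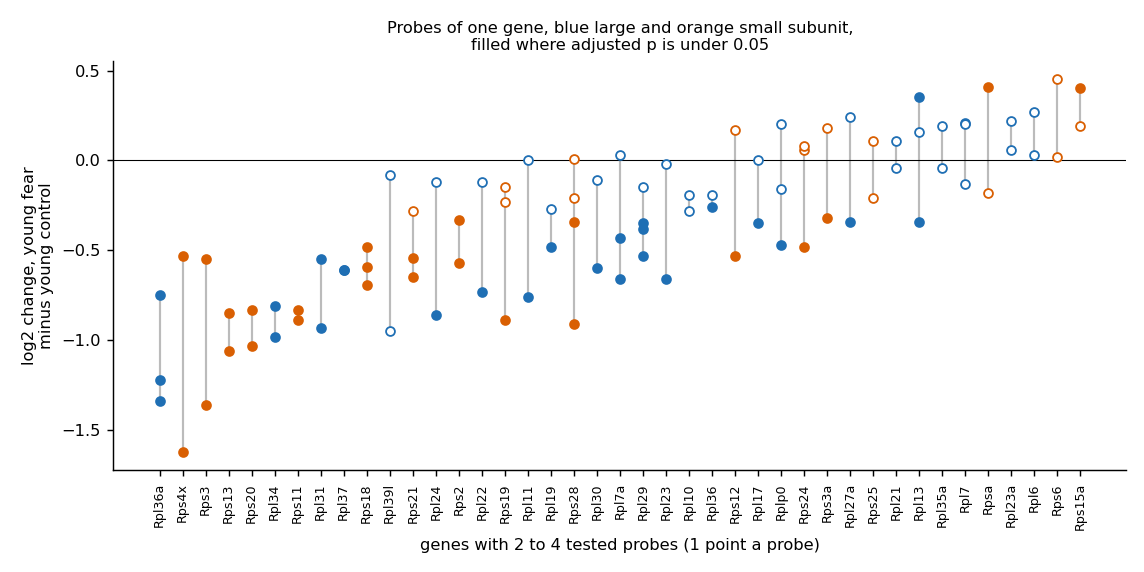
Log2 change in young fear against young control (vertical axis) of each tested probe of genes with 2 to 4 probes (horizontal axis, ordered by the gene's mean), blue for the large and orange for the small subunit, filled where the adjusted p is under 0.05, with a line joining the probes of a gene. Rps4x spans -1.62 to -0.53, and 13 genes have points on both sides of 0.

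What the probes share beyond the name was examined as description. Neither the GC content of the probe nor its mean level ranked with its change, with Spearman's rho of -0.10 and -0.11 over the 137 probes, which share the same arrays. Among the 69 probes at or above the median level 47 fell and none rose, and among the 68 below it 32 fell and 5 rose. Of the 39 probes that map over more than 100 bases, and so in pieces, 18 fell (median -0.28), and of the 95 that map over 50 to 100 bases 58 fell (median -0.38). The 20 probes holding AATAAA, the letters of a polyadenylation signal, had a median of -0.54 with 14 lower and 1 higher, and the 117 without it a median of -0.33 with 65 lower and 4 higher. In 40 genes with mapped probes, the probe nearest the 3′ end was the lower one in 23 and the higher one in 16, with a median difference of -0.15.

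Promoters were read from RefSeq on GRCm38.p6 for the 60 of 81 genes that matched, with 72 start sites. The window from 20 bases before to 30 after the start was searched for CTTTCC, a short pyrimidine string of the TOP type, with its reverse complement counted separately. It was present in 12 of 72 windows (16.7%) and in 2.4% of all 32851 promoters, and the reverse complement GGAAAG was in 0 of the 72 and in 2.32% of all. Windows of genes with a probe that fell held it in 6 of 55 cases (10.9%), and windows of the remaining genes in 6 of 17 (35.3%). Rps27 holds the motif, in capitals, and the window of the strongly changed paralogue Rps27l at its upstream start does not.
Rps27 promoter, chr3:90213619-90213668, minus strand: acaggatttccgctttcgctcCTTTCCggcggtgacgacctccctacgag
Rps27l promoter, chr9:66946066-66946115, plus strand: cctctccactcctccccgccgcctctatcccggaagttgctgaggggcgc
Of the genes that rose, Rpl4 holds it, as does a start site of Rpl10a, while the other Rpl10a window does not. Windows of the remaining genes that rose are not reported here.
Rpl4 promoter, chr9:64173367-64173416, plus strand: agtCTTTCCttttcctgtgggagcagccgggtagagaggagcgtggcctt
A match is a description of the letters and not of a bound factor.

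In old mice the members did not move with fear conditioning as far as could be detected. None of the 137 passed limma's test, while 0.0722% of all probes were called lower and 0.328% higher (0.400% in all), 8 had an unadjusted p under 0.05, 7 lower and 1 higher, beside 15.89% of all probes, and the smallest adjusted p was 0.0892. The median change was -0.03, beside -0.02 for all probes. The array medians were 0.00, 0.03, 0.11 and 0.15 in old controls and 0.02, 0.04, 0.03 and 0.00 after fear conditioning, relative to the young control mean, and so overlapped. Within slides the median was 0.06, -0.08, -0.11 and 0.03. The groups did not overlap for 5 probes that were lower and 1 that was higher, with 4.49% and 3.64% over all probes.

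The lowest values in old mice among probes well above background on all arrays belonged to Rpl21, Rpl8 and Rps21. Rpl21, a large-subunit protein, read 13.43, 13.90, 13.44 and 14.02 in old controls and 12.82, 12.41, 13.42 and 12.68 after fear conditioning, a change of -0.87 ± 0.32 (adjusted p = 0.209, limma). Rpl8, near the peptidyl transferase centre, gave -0.39 ± 0.11 (adjusted p = 0.093), Rps21 -0.39 and a probe of Rplp0 -0.38 (adjusted p = 0.0892). The highest values were the 4 probes that had dropped in the dim block. Rpl24 gave 1.87 with the block in place and 0.06 without it, Rps28 1.48 and 0.00, Rpl11 1.37 and -0.08, and Rpl13 1.22 and -0.15. Without the block the changes ran from -0.87 to 0.36, and still no probe passed the test.

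Age alone gave no called member either. Of the 137 probes, 0 passed limma's test between old and young controls, while 0.245% of all probes were called lower and 0.516% higher (0.761% in all). There were 9 with an unadjusted p under 0.05, 1 lower and 8 higher, beside 11.22% of all probes, and the smallest adjusted p was 0.125. The median was 0.04, beside 0.00 for all probes, and 4 probes were wholly higher in old controls, in Rpl19, Rpl36a, Rpl7a and Rps10, beside 2.72% of all probes. None was wholly lower, beside 1.82%. The dim block touches this comparison with the opposite sign, since it shares the old control arrays with the preceding one. Rpl24 gave -1.24 with the block and 0.57 without it, Rps28 -1.15 and 0.33, Rpl11 -1.18 and 0.27, and Rpl13 -0.94 and 0.43.

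**Figure D5:**
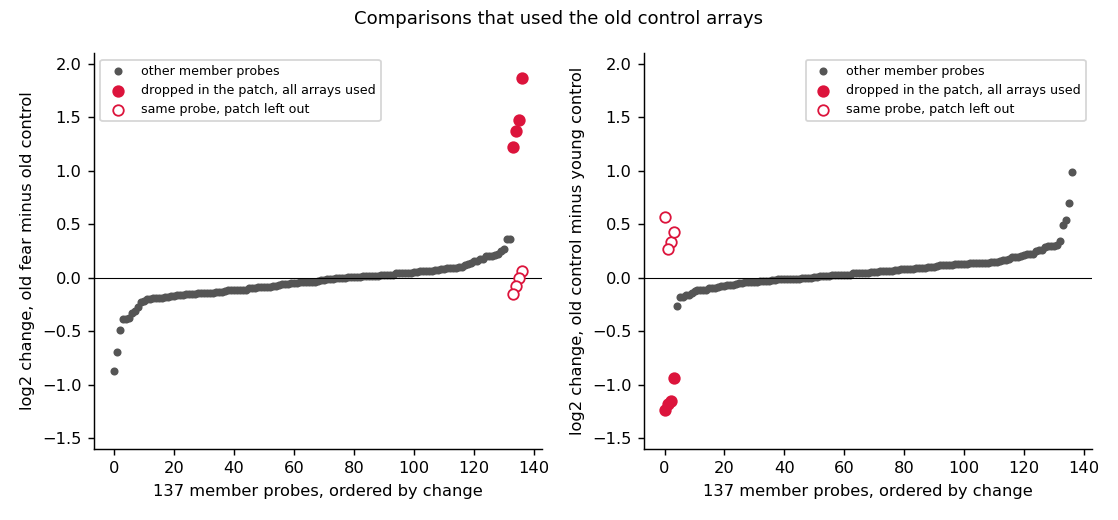
Log2 change (vertical axes) of the 137 member probes, ordered by change (horizontal axes), in old fear against old control (left) and old control against young control (right). Filled red points are the 4 probes that dropped in the dim block, at 1.22 to 1.87 on the left and -1.24 to -0.94 on the right, and open red points are the same probes with the block left out, from -0.15 to 0.06 and from 0.27 to 0.57.

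After fear conditioning, old mice had higher member signal than young mice. Of the 137 probes, 75 were higher and 5 lower in old fear than in young fear, beside 18.3% and 21.3% of all probes (39.7% in all), and the median was 0.39, beside 0.05. The large subunit had 40 probes higher and 4 lower of 80 and the small subunit 35 higher and 1 lower of 57. The groups did not overlap for 78 higher and 5 lower probes, beside 20.3% and 22.6%. With the dim block left out 77 were higher and 5 lower. Within slides the median was 0.48, 0.43, 0.29 and 0.47.

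The difference between the ages in their change after fear conditioning was tested as an interaction. It was above 0 for 54 members and below 0 for 3, beside 11.8% and 14.8% of all probes (26.6% in all), with a median of 0.35, beside 0.03. With the dim block left out these were 55 and 3. Rps27l, whose probe lies at the edge of the block, had the largest called value, 1.54 ± 0.15 (SE, adjusted p = 5.13e-07, limma), or 1.47 (adjusted p = 1.12e-06) without the block, ahead of Rpl36a at 1.36 and Rps4x at 1.29. The 3 below 0 were Rpl10a at -0.94 ± 0.18 (adjusted p = 0.00047), Rpl4 at -0.73 ± 0.17 (adjusted p = 0.00333) and Rpsa at -0.59 (adjusted p = 0.00333). In old mice Rpl10a read 14.14, 14.50, 14.17 and 14.02 in controls and 14.12, 13.86, 14.09 and 14.16 after fear conditioning, and these ranges overlap. The comparison of the fear groups and the interaction share the young fear arrays with the comparison in young mice and are no independent evidence of its direction.

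In the non-associative groups, across the scan runs, a smaller share of members than of all probes was called in all, 50.4% and 48.9%, with somewhat more of them lower. In context-exposed mice 52 members (38.0%) were lower and 17 higher, beside 34.2% and 30.4% of all probes (64.6% in all). In shock-context mice 55 (40.1%) were lower and 12 higher, beside 31.5% and 29.3% (60.8% in all). Context and control arrays did not overlap for 50 lower and 12 higher members, beside 29.8% and 27.8% of all probes, and shock-context and control arrays for 52 lower and 13 higher, beside 28.5% and 27.5%. With 75th percentile scaling the counts were 92 lower and 4 higher for context, beside 50.4% and 18.4% of all probes, and 91 lower and 5 higher for shock-context, beside 49.3% and 16.1%, with the median of all probes at -0.36 and -0.33. The array medians were -0.11, -0.14, -0.12 and -0.15 for context and -0.11, -0.15, -0.29 and -0.21 for shock-context, all below the young control arrays. Only shock-context array 3 was as low as the highest of the young fear arrays, which lay at -0.29.

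Outlying members here were not those of fear conditioning, apart from the Rps4x probe. A clone-derived probe of Rps19, a small-subunit protein mutated in Diamond-Blackfan anaemia, was well above background on 2 of 4 context and 0 of 4 shock-context arrays, so no size of change is given for it. Rps13 gave -1.18 and -1.22 on its second probe and Rps4x -1.65 and -1.19. On the high side, a probe of Rpl21 gave 1.44 and 1.37. Clone-derived probes gave 1.40 and 1.35 for Rps6 and 0.89 and 0.69 for Rps18. The other Rps18 probes had means of 17.48 and 16.12 in young controls. Their means were 17.13 and 16.06 in context mice and 17.17 and 16.02 in shock-context mice, so neither was higher. Rps27l gave -0.56 (adjusted p = 0.0001, limma) and -0.54 (adjusted p = 0.000187), and Rps3 gave -0.67 and -0.75. Rps7, at -1.05 after fear conditioning, gave -0.05 and -0.02, and Rpl10a, at 0.79, gave 0.14 and 0.02. Rpl4 was 0.49 and 0.47 higher (adjusted p = 0.00152 and 0.00239), beside 0.64 after fear conditioning.

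Shock-context against context, within the second run, showed no called member. None of 137 passed limma's test, while 0.00516% of all probes did, all of them lower. There were 3 with an unadjusted p under 0.05, 1 lower (Rpl17) and 2 higher (Rpl30 and Rps4x), 2.19% of members beside 4.82% of all probes. The groups did not overlap for 1 lower and 0 higher members, beside 2.65% and 2.80% of all probes. The median was -0.04, beside 0.02 for all probes. The members' changes ran from -0.47 (Rpl39l) to 0.46 (Rps4x) and had an SD of 0.12, beside 0.26 over all probes. On the slides the medians were -0.08 and 0.01. Rps26 gave -0.30, Rpl7 -0.25 and Rps24 -0.24, each with an adjusted p of 0.999.

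Ribosomal proteins outside the naming rule were lower too in young mice, where 20.6% of all probes fell and 22.5% rose. Of 10 probes 6 fell and 0 rose after fear conditioning, with a median of -0.32, among them Gnb2l1 (RACK1, a scaffold on the small subunit) at -0.72 and Fau at -0.59. Of 123 probes of mitochondrial ribosomal proteins 66 fell and 13 rose, with a median of -0.36, close to that of the cytosolic members. Their array medians were -0.39 to -0.29 in young fear mice. The other mRNAs of the TOP class divided evenly, 11 higher and 11 lower of 38, with a median of -0.06: Eef1g gave -0.80, Eif3k -0.90 and Eif4b 1.13.

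The rest of the translation apparatus was called in both directions in young fear mice, as were all probes (22.5% higher and 20.6% lower). The genes named are those of smallest p in each list. Of 76 probes of initiation factors 22 rose and 16 fell, among them the helicase Eif4a1 at 1.80, Eif4g2 at 1.65 and Eif5b at -1.93. Of 18 probes for elongation and termination 8 rose and 5 fell, with the release factors Etf1 at 0.96 and Gspt1 at 0.68. Ribosome biogenesis factors were split, 24 higher and 20 lower of 86, with Gnl3l at 1.31 and Nip7 at -0.68. In the mTOR pathway to the ribosome 16 of 46 rose and 7 fell. Among them were Larp1, the repressor of TOP mRNAs, at 1.39, the kinase Mknk1 at 1.54 and Myc at 1.12. In context and shock-context mice, across the scan runs, Larp1 gave 1.09 and 1.04, Mknk1 1.37 and 1.38, and Myc -0.02 and 0.13.

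Markers of other tissue moved with the same comparison, in which 22.5% of all probes rose and 20.6% fell. Of 22 choroid plexus probes 21 fell and 0 rose in young fear mice, with array medians from -3.34 to -2.24 and a summed linear signal of 23344 to 37497 against 176571 to 257476 in young controls. Of 33 thalamus probes 22 rose and 1 fell, with a sum of 83283 to 91603 against 55375 to 67027. Of 27 oligodendrocyte probes 19 rose and 1 fell, with a sum of 448603 to 519897 against 266901 to 303698. Excitatory neuron markers rose in 11 of 17 and fell in 1, blood markers rose in 1 of 14 and fell in 7, astrocyte markers rose in 10 of 29 and fell in 9, and microglial markers rose in 5 of 20 and fell in 7. Interneuron markers rose in 7 of 20 and fell in 3, and endothelial and mural markers rose in 9 of 25 and fell in 5. In old mice the choroid plexus sum was 166903 to 198341 after fear conditioning and 173330 to 261136 in controls, and the thalamus sum 101649 to 131427 and 71221 to 86726. Each of the 22 choroid plexus probes was well above background on at least 1 young fear and 1 young control array.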

How the data were processed

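The authors deposited Agilent Feature Extraction output (version 9.5.3.1, per the file headers) for 24 arrays, with a spot intensity per probe that the scanner software had already background-subtracted and detrended, in linear units. They also deposited a table of log2 values, used as an alternative, whose normalization is not given in the sources used here. Its column medians all lie near 8.57, and probe ranks matched those of the median spot signal. The submitters' processing notes name limma.

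Here log2 of the processed intensity was quantile normalized over the 24 arrays (R 4.3.3). Outlier spots were set missing and the spots of each probe averaged. A probe stayed in the fit if at least 4 arrays had it well above background. Group means were fitted with limma 3.58.1 (lmFit, eBayes, 18 residual degrees of freedom, no covariates). The contrasts were tested 2-sided, with Benjamini-Hochberg adjustment over 38762 probes. A change is a difference of log2 means between groups; each probe was counted by itself, since probes of a gene can disagree. The fit was tested on simulated data. The samples are single mice, and p-values measure the spread between them. The number of arrays limits the precision. Figures used matplotlib 3.10.9.

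Gene names and mm9 positions came from the array design of 2009, which the second-run files carry. Of its 138 member names, 130 were also members in the design of 2006. The members and gene lists were chosen with earlier results of these data known. Probes given with values were the 6 lowest and 6 highest in young fear among probes well above background and never saturated on all 24 arrays, the 3 lowest and highest in the comparisons in old mice, of the ages and between the non-associative groups, a panel of ribosomal proteins with paralogues or known roles outside translation, genes with discordant probes, and up to 3 genes of smallest p per list. Rps7, Rps9, Rps20, Rpl14, Rpl34, members named for a small count and the extremes of context and shock-context against control were chosen after their values were seen. Single values of a few genes are not reported here.

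Replicate numbers are shared by the control and fear groups. They were checked for pairing: deviations of same-numbered arrays correlated above 0.1 in 14 of 24 pairs (-0.417 to 0.655), short of every pair, and the labels do not say what a number marks, so the fit has no block. In the control and fear groups each number is also 1 slide, and the fit with that block is given. Alternatives were other scalings, normexp background correction, probe filters, the deposited table, one probe per gene, blocks, fewer arrays and each array left out.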

Additional observations from a re-analysis of the deposited data

Results flagged for a closer look

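Single arrays stood apart from the other arrays of their group in 11 of 120 groups of 4 examined (Dixon's test of the gap over the range), and chance gives about 1 in 20. The 11 include the 4 probes already known to have dropped in the dim block. The groups also share arrays, so the count was not tested against that rate. In old control array 2, Rpl24 read 7.34, Rps28 10.32, Rpl11 11.37 and Rpl13 11.77, the probes of the dim block. Rpl13 also read 16.77 in old fear array 2 against 17.18 to 17.21 on the others, outside that block's array. Rps3 read 13.06 in young fear array 4 against 12.44 to 12.49, and Rps15a read 14.22 in young control array 3 against 14.56 to 14.57. In context array 3, Rps9 read 14.42 against 14.65 to 14.68, Rps6 read 16.19 against 15.92 to 15.96 and Rpl11 read 17.41 against at most 17.06. That Rpl11 probe was saturated there. In shock-context array 3, Rpl24 read 14.11 against 14.58 to 14.66.

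The change after fear conditioning differed between old and young mice for 57 member probes by the interaction test. Rps27l differed most among the called probes, by 1.54, and Rpl10a and Rpl4 differed the other way, by -0.94 and -0.73.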

How the results depend on the processing

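In young mice after fear conditioning the number of called members was 84 and ran from 70 to 108 over all alternatives apart from 1 probe per gene. It was 79 with the replicate block, 86 with the slide and 71 with the pairs of deviating arrays as a random block, and 75 to 83 with each array left out. With that choice it was 55 of 81 genes, fewer because fewer probes were tested. The same change gave 42 for context and 43 for shock-context. In old mice after fear conditioning, normexp and the deposited table each called 1 member instead of 0 (the cause was not tested), and leaving out an array gave 0 to 1 between the controls, 1 without young control array 3 and without old control array 1. The interaction gave 57 members, 51 with the replicate block, 52 to 59 with an array left out and 40 to 82 over the other alternatives. The replicate block changed no count by over 1.5 times.

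With 75th percentile scaling, 4 of the named probes that had been above 0 were called lower in young fear mice: Rpl3 (-0.35), Rpl7a (-0.32), Rps24 (-0.38) and Rps6 (-0.41). Without the dim block or without old control array 2, the change in old mice became -0.15 for Rpl13 and 0.00 for Rps28, the difference between old and young controls became 0.43 for Rpl13, 0.57 for Rpl24 and 0.33 for Rps28, and the interaction became -0.01 for Rps28. With any single array left out, the ranges were, in the same order, -0.15 to 1.71 and 0.00 to 2.04, then -1.44 to 0.43, -1.92 to 0.57 and -1.72 to 0.33, then -0.01 to 2.03. Of 1003 single-probe values under other alternatives 928 kept their side of the threshold without a called reversal. Among these, 25 were called in neither fit and changed sign.

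Each probe reads 60 bases, pseudogene copies cannot be told apart from the gene, and 4 arrays per group limit what can be seen of small changes. The highest probes are near saturation: 6 members were saturated on 1 array each, and leaving out saturated probes gave 81 called members in young fear mice. Quantile normalization fixes the distribution of each array, so only changes relative to other probes are seen.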
